A study of Brachypodium distachyon with 12 samples.

Results

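The vascular bundles (VBs) that show no protoxylem cell, called VB type 1, were compared with parenchyma from the center of the stem in wild-type Brachypodium distachyon (Bd21-3), a model grass. The comparison took 3 VB type 1 libraries and 3 parenchyma libraries, 6 of the 12 RNA-seq libraries of the series, and its members were chosen by the sample labels alone. Both tissues were cut from cryo-sections of the top nodes of the main stem by laser capture microdissection, in which a laser frees chosen cells from a thin section. All plants were untreated and labelled as 19 days old, and the study's methods give a slightly higher age. Each library was made from 500 pg of polyA-selected RNA. All 12 libraries carry the tissue label meristem, and the parenchyma libraries are labelled as controls. Each replicate pooled several dissected elements, which came from a single plant or from a few, so that the p-values measure the spread between such pools. Nascent bundles were recognised in the sections by their low chlorophyll content. Genes of photosynthesis are therefore not independent of how the tissue was chosen. Because these are bulk samples, fewer cells of a type and less RNA per cell cannot be told apart.

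A bundle begins as procambium, a strand of dividing cells from which phloem and xylem differentiate. Procambial cells in Arabidopsis are kept dividing by the receptor kinase PXY and by the WOX4 homeodomain protein, and their strands follow the transport of auxin through PIN carriers. Phloem cells then line their sieve plates with callose and load sucrose, while xylem cells deposit cellulose, xylan and lignin in a thick secondary wall and die. Central stem parenchyma is ground tissue with large vacuoles and, in young grass stems, with chloroplasts and starch.

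The gene names used here are those of the best match in Arabidopsis given by the study's annotation tables, and orthology was not tested. Those tables named 1426 of the genes tested here. A table of the study lists 851 genes ranked in this same comparison, so list members known from it alone were in effect chosen on these libraries. Their counts are not independent evidence of direction. Members said below to be ranked by the study are those known from that table alone. Members from other sources can be listed there too, or be named in the study's text for these libraries. Counts of those members are thus not fully independent either.

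Between 18782704 and 22527248 read pairs were counted in the VB type 1 libraries, and 27218311, 23553806 and 12888132 in parenchyma replicates 1, 2 and 3. A single transcript without annotation, Bradi2g12067.1, took 54.0, 35.2 and 26.1% of the pairs in VB type 1, against 15.1, 20.99 and 86.3% in parenchyma. It left 1768043 other pairs in parenchyma replicate 3 and at least 10360580 in each of the other 5 libraries. The detection limit of 3 pairs was 1.26 CPM (pair counts scaled to library size) in that library and 0.0638 to 0.121 CPM in the others. Such limits cover counting error only, since the reads carry no molecular identifiers. Levels are these CPM, with library sizes adjusted by TMM, and all fold changes are log2 values of VB type 1 over parenchyma. Filters at 1 CPM used library sizes before TMM, so they are not on the scale of the printed levels. Over the 17078 genes tested, the libraries correlated with each other at r = 0.616 to 0.802 within VB type 1, at 0.628 to 0.730 within parenchyma and at 0.564 to 0.692 between the tissues. Parenchyma replicate 3 was over 10-fold below both other parenchyma libraries for 230 genes and over 10-fold above them for 149, and VB type 1 replicate 1 was as far below both other VB type 1 libraries for 173 genes. Counts over all genes and over each gene list are therefore given with and without parenchyma replicate 3, and where a named gene's call changed without it, that is stated.

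The 2 edgeR tests gave different answers. The quasi-likelihood test, which allows for the uncertainty of each gene's dispersion, called 0 of 17078 genes at an adjusted p of 0.05 (0%), and its smallest adjusted p was 0.0533. At an unadjusted p under 0.05 it held 2220 genes. The likelihood ratio test (LRT), which the study's methods name, called 653 genes (3.82%), of which 338 were higher in VB type 1 (1.98%) and 315 lower (1.84%). DESeq2 called 807 genes and limma-voom 144. Without parenchyma replicate 3, the quasi-likelihood test again called 0 of 16967 genes, and the LRT called 776 (4.57%), 398 higher (2.35%) and 378 lower (2.23%). Libraries of the tissues did not overlap for 18.5% of the genes tested, 10.1% with VB type 1 higher and 8.48% with VB type 1 lower, and this is the background for statements on overlap below. Of the 653 genes, 512 were also called without that library, and 0 changed direction. "Higher" and "lower" as calls below are those of the LRT, and no gene named below passed the quasi-likelihood test with all 6 libraries.

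The LRT calls depended most on VB type 1 replicate 2. With each library left out in turn, and genes kept at 1 CPM in 2 libraries so that those seen in a single tissue stay in the test, between 398 and 527 of the 653 calls remained for 5 of the 6 libraries. Without VB type 1 replicate 2, 185 remained. Statements below that a call held or was lost without a library refer to these fits, unless an adjusted p without parenchyma replicate 3 is given, which is at the main filter of 1 CPM in 3 libraries. In all, 114 higher genes (0.668% of those tested) and 47 lower genes (0.275%) stayed called whichever library was left out.

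**Figure D1:**
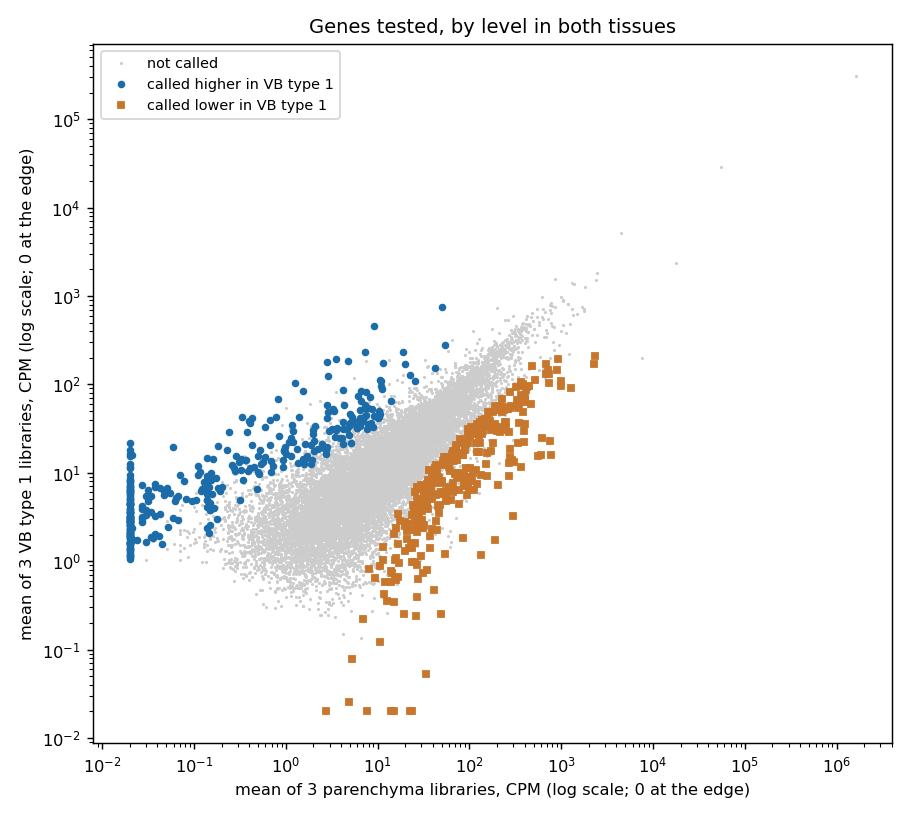
Mean level of each of the 17078 genes tested in the 3 VB type 1 libraries (vertical, CPM, log scale) against the 3 parenchyma libraries (horizontal, CPM, log scale), with values below 0.02 CPM drawn at the edge. The 338 genes called higher in VB type 1 by the LRT lie mostly at the left, near no signal in parenchyma. Of the 315 called lower, 8 had at most 3 pairs in every VB type 1 library, and the others lie inside the measured range of both tissues.

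The 338 higher genes had a median level of 8.18 CPM in VB type 1 and 0.140 CPM in parenchyma, and 158 of them (46.7%) had at most 3 pairs in every parenchyma library. The 315 lower genes had a median level of 9.81 CPM in VB type 1 and 71.3 CPM in parenchyma, and 8 of them (2.54%) had at most 3 pairs in every VB type 1 library. The 2 shares cannot be set against each other, since a gene seen in parenchyma alone had to reach 1 CPM in the shallow parenchyma replicate 3 to be tested, whereas a gene seen in VB type 1 alone had to reach it in deeply counted libraries. For the higher genes, the deeply counted parenchyma replicates 1 and 2 alone gave the same 158 genes at or under 3 pairs. The median fold change of the lower genes was −2.84. That of the higher genes was 5.92, or 4.27 when the 70 genes without a pair in parenchyma were set at their lower bound, taken against 3 pairs in each library and averaged over the tissue.

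Genes of the procambium leaned towards VB type 1. All 8 members of the list of procambium and stem cell signalling had positive fold changes, with a median of 2.88 against 0.01 over all genes tested, and 4 were called higher by the LRT. Without parenchyma replicate 3, 3 were called and the median was 3.35. Of the 8 members, 5 were known from the ranked table alone, with 2 of the 4 calls. The 3 members from other sources gave 2 calls, and 1 without parenchyma replicate 3. Those 2 calls were of TMO6 and PXY, which the study's text names as up-regulated in bundles against this parenchyma. They are therefore not independent of this contrast. TMO6 (Bradi1g26570.1), a Dof factor that acts downstream of auxin in the Arabidopsis embryo, had 28.9, 86.6 and 29.7 CPM in VB type 1, against 2.77, 2.96 and 2.93 CPM in parenchyma. The tissues did not overlap, and the fold change was 4.07 ± 0.58 (SE, n = 3 each, LRT adjusted p = 2.15e-05). TMO6 stayed called with any library left out.

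PXY (Bradi3g17567.1), the receptor kinase of the procambium, had 24.7, 7.38 and 25.4 CPM in VB type 1, against 4.47, 2.56 and 0.837 CPM in parenchyma. Its fold change was 2.79 ± 0.80 (SE, n = 3 each), and the LRT adjusted p of 0.0439 became 0.0819 without parenchyma replicate 3. The call was also lost without parenchyma replicate 2 and without any of the VB type 1 libraries. WOX4 (Bradi5g24080.1), the homeobox gene that acts with PXY in Arabidopsis, overlapped between the tissues, with 3.72, 25.7 and 30.7 CPM in VB type 1 and 9.93, 7.03 and 1.26 CPM in parenchyma (LRT adjusted p = 0.475). Its low VB type 1 value came from replicate 1.

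Receptors of the CLAVATA family were also called higher. CLV1 (Bradi1g30160.1), which restricts stem cells in the Arabidopsis shoot meristem, had 10.7, 15.5 and 16.3 CPM in VB type 1, against 0, 0.0603 and 0.419 CPM in parenchyma, where at most 3 pairs were counted in each library (LRT adjusted p = 3.84e-06). It stayed called with any library left out. BAM1 (Bradi4g21830.1), a close relative of CLV1, had 42.6, 82.0 and 38.9 CPM in VB type 1, against 2.77, 3.92 and 15.1 CPM in parenchyma (LRT adjusted p = 0.00981). BAM1 lost its call without VB type 1 replicate 2 and without parenchyma replicate 1 or 2. The homeobox genes HAT3, WOX13 and KAN2 had fold changes of 2.80, 1.84 and 4.62 and LRT adjusted p-values of 0.0553, 0.0536 and 0.0554. Their libraries did not overlap between the tissues, yet they were not called. KAN2 was also a member of the list of leaf polarity and growth genes described below.

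**Figure D2:**
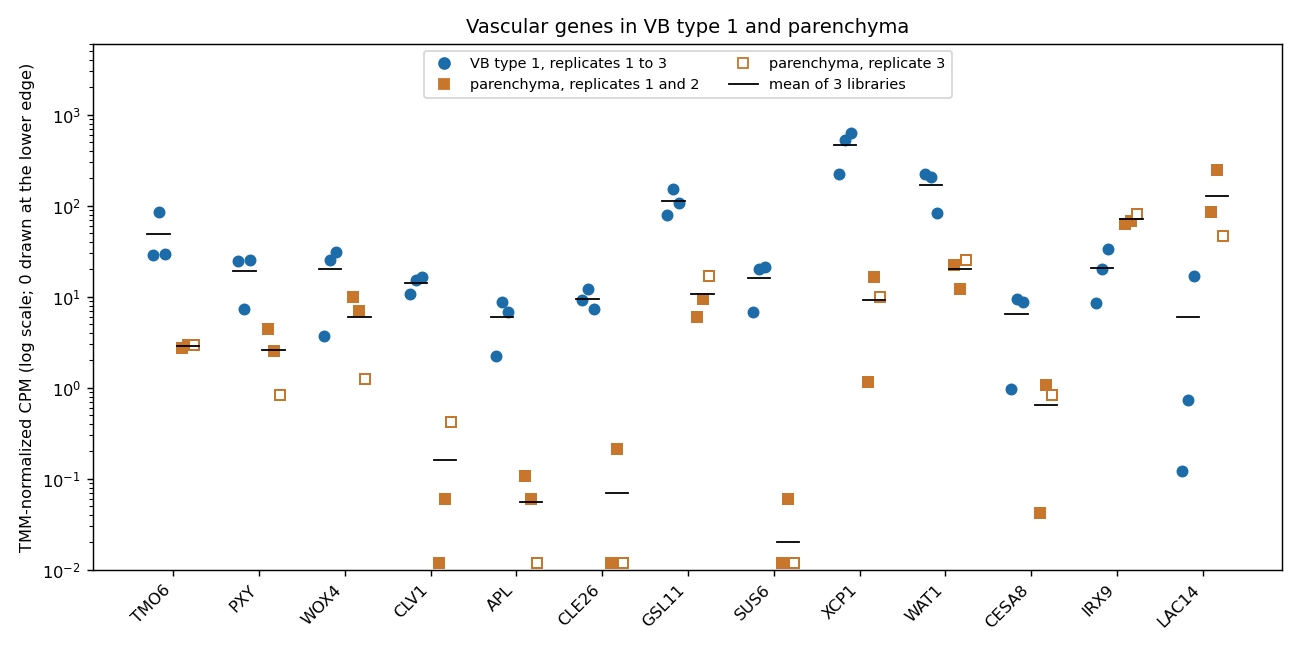
Level of 13 procambium, phloem and xylem genes in each library (vertical, TMM-normalized CPM, log scale, with 0 drawn at the lower edge), VB type 1 to the left of parenchyma for each gene, with bars at the mean of 3 libraries. The VB type 1 circles lie above every parenchyma square for TMO6, PXY, CLV1, the 4 phloem genes, XCP1 and WAT1, and below them for IRX9 and LAC14.

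Phloem genes were the list with the most calls in the vascular direction. Of 19 members tested, 12 were higher, 0 were lower and 7 were not called, and without parenchyma replicate 3 there were 13 higher and 0 lower. The median fold change was 3.96, or 3.68 with 1 gene that had no pair in parenchyma set at its bound. Of the 12, 11 were of members known from the ranked table alone. Members from other sources gave 1 call of 3 tested, and the ranked table lists that gene, Bradi3g10270.1, as well.

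APL (Bradi1g31837.1), the MYB factor that specifies phloem identity in Arabidopsis, had 2.22, 8.76 and 6.83 CPM in VB type 1, against 0.106, 0.0603 and 0 CPM in parenchyma (fold change 6.15 ± 1.21 SE, n = 3 each, LRT adjusted p = 0.0017). CLE26 (Bradi1g54656.1), which encodes a peptide signal of the protophloem, had 9.17, 12.1 and 7.31 CPM in VB type 1, against 0, 0.211 and 0 CPM in parenchyma (LRT adjusted p = 0.0013). Both genes were thus seen in all 3 VB type 1 libraries and were at most at 0.211 CPM in parenchyma replicates 1 and 2, while parenchyma replicate 3, with no pair of either, could not show levels under 1.26 CPM. BRXL1 (Bradi5g20580.1), related to an Arabidopsis regulator of protophloem, had 28.9, 25.5 and 8.35 CPM in VB type 1, against 2.72, 0.452 and 4.19 CPM in parenchyma, where it was thus detected. Neither APL nor CLE26 stayed called without VB type 1 replicate 2.

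A glucan synthase-like gene and 1 sucrose synthase gene gave the firmest calls of the list. GSL11 (Bradi2g40441.1), annotated as glucan synthase-like 11, had 79.0, 154 and 108 CPM in VB type 1, against 5.96, 9.47 and 16.7 CPM in parenchyma (fold change 3.42 ± 0.50 SE, n = 3 each, LRT adjusted p = 6.32e-05). SUS6 (Bradi1g29570.2), a sucrose synthase of sieve elements in Arabidopsis, had 6.74, 20.1 and 21.5 CPM in VB type 1, against 0, 0.0603 and 0 CPM in parenchyma (LRT adjusted p = 4.41e-07). These 2 genes stayed called with any library left out. They were the only phloem members that did, and 2 of the 12 remained without VB type 1 replicate 2.

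Dof factors were also among the calls. DOF5.6 (Bradi3g52880.1), known in Arabidopsis for raising cambial activity, had 22.1, 41.9 and 31.6 CPM in VB type 1, against 4.59, 7.66 and 5.86 CPM in parenchyma (LRT adjusted p = 0.00981). OBP3 (Bradi2g37130.1) had 43.9, 27.5 and 10.02 CPM in VB type 1, against 3.98, 1.18 and 0.837 CPM in parenchyma (LRT adjusted p = 0.00421). Both lost their call without VB type 1 replicate 2, DOF5.6 also without parenchyma replicate 1 and OBP3 also without VB type 1 replicate 1. RTM2 (Bradi3g29220.1), a small heat shock-like protein that restricts virus movement through the phloem of Arabidopsis, had 4.2, 7.65 and 1.67 CPM in VB type 1 and 1 pair in all of parenchyma.

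Not all genes of sugar transport and mature phloem followed. Of the sugar carriers of the MtN3 (SWEET) family, Bradi3g10270.1 was called higher (LRT adjusted p = 0.00522), with 40.8, 106 and 11.1 CPM in VB type 1, against 4.59, 0.724 and 4.6 CPM in parenchyma. Another, Bradi2g47540.2, had 0.0404, 4.38 and 2.97 CPM in VB type 1, against 8.55, 39.1 and 9.21 CPM in parenchyma, and was not called (LRT adjusted p = 0.225). A sucrose synthase, Bradi1g62957.1, had 3.72, 10.3 and 5.64 CPM in VB type 1 and 10.6, 9.59 and 8.37 CPM in parenchyma, which overlap. A cell wall invertase, Bradi5g09420.1, had 0, 77.6 and 101.7 CPM in VB type 1 and 0.0638, 1.69 and 3.77 CPM in parenchyma, and was not called (LRT adjusted p = 0.148). The gene matched to PP2-A1 (Bradi2g00250.2), a lectin of mature sieve tubes, had no pair in any of the 6 libraries.

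Xylem genes were divided, in contrast with the phloem list. Of 27 members, 15 were tested, and 3 were called higher and 1 lower. The counts were the same without parenchyma replicate 3, with C4H called in place of CCR1. The median fold change was −0.99, and −0.55 without that library. With all libraries, 2 of the higher calls and the 1 lower call were of members the study ranked on these libraries. XCP1 (Bradi2g39320.2), a protease that degrades the contents of dying vessel cells, had 222, 534 and 630.2 CPM in VB type 1, against 1.15, 16.3 and 10.05 CPM in parenchyma. Its fold change was 5.66 ± 0.91 (SE, n = 3 each, LRT adjusted p = 1.53e-05), and it stayed called with any library left out. This transcript was thus high in bundles selected for having no visible protoxylem cell. On a scale shared by all 12 libraries, the median of XCP1 was 590.0 CPM in VB type 1, 861 in VB type 2 and 731 in VB type 3, whose bundles show protoxylem cells, and 11.04 in parenchyma. The bundle types were not tested against each other here.

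WAT1 (Bradi4g21220.1), a vacuolar auxin transporter needed for secondary walls in Arabidopsis fibers, was called higher and held with any library left out. It had 221, 208 and 83.4 CPM in VB type 1, against 22.4, 12.1 and 25.5 CPM in parenchyma (fold change 3.10 ± 0.49 SE, n = 3 each, LRT adjusted p = 0.000389). CCR1 (Bradi3g36887.1), an enzyme of lignin precursors, had 41.96, 200.4 and 140.3 CPM in VB type 1, against 29.0, 12.3 and 25.95 CPM in parenchyma (LRT adjusted p = 0.0186, and 0.0525 without parenchyma replicate 3 at the same filter). CCR1 also lost its call without parenchyma replicate 2 and without VB type 1 replicate 2 or 3. C4H (Bradi2g31510.1), an early enzyme of the same pathway, had 4.32, 37.2 and 76.6 CPM in VB type 1, against 0.532, 0.724 and 10.05 CPM in parenchyma. It was not called with all libraries (fold change 3.55 ± 1.33 SE, n = 3 each, LRT adjusted p = 0.12) and was called without parenchyma replicate 3 (fold change 5.98, LRT adjusted p = 0.000773).

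Other wall genes were at higher values in parenchyma. GT72B1 (Bradi4g14500.1), a glycosyltransferase that acts on lignin precursors in Arabidopsis, was the member called lower, with 4.97, 11.7 and 12.0 CPM in VB type 1, against 46.7, 32.5 and 47.3 CPM in parenchyma (LRT adjusted p = 0.023). That call was lost without parenchyma replicate 1 and without any of the VB type 1 libraries. IRX9 (Bradi1g16540.1), which builds the xylan backbone, had 8.52, 20.2 and 33.8 CPM in VB type 1, against 63.3, 67.4 and 82.0 CPM in parenchyma. The libraries did not overlap, and the LRT adjusted p was 0.109. LAC14 (Bradi3g59210.1), a laccase, had 0.121, 0.73 and 17.01 CPM in VB type 1, against 85.7, 248 and 46.5 CPM in parenchyma (LRT adjusted p = 0.0579).

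Several genes known from lignifying xylem were not called or were too low to be tested. CESA8 (Bradi2g49912.1), a cellulose synthase of secondary walls, had 0.969, 9.57 and 8.69 CPM in VB type 1, against 0.0425, 1.09 and 0.837 CPM in parenchyma, and was not called (fold change 3.38 ± 1.29 SE, n = 3 each, LRT adjusted p = 0.227). LAC17 (Bradi2g54690.1), a lignin laccase, had 0, 0 and 0.111 CPM in VB type 1, whereas parenchyma held no pair. TED7 (Bradi3g13291.2), a marker of differentiating tracheary elements, had no pair in VB type 1 and 1 pair in parenchyma. NAC007 (Bradi3g50067.1), which belongs to the family of vessel master regulators in Arabidopsis, had 1.78, 0.154 and 8.35 CPM in VB type 1, against 0, 0.271 and 0 CPM in parenchyma, and was too low to be tested. In all, 12 members of the list were below the limit for testing.

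Auxin genes leaned towards VB type 1. Of 28 members, 19 were tested, with 6 called higher and 2 lower, and with 6 higher and 1 lower without parenchyma replicate 3. The median fold change was 2.17. Of these calls with all libraries, 5 higher and 2 lower were of the 9 members the study ranked on these libraries. The 10 tested from other sources gave 1 higher and 0 lower, with a median of 2.13. The higher call was of PGP11, which the ranked table lists as well. The 10 also held the PIN carriers that the study names for these libraries, so their median is not independent of this contrast. Of the carriers named by the study, PIN1a (Bradi1g45020.1) had 61.6, 71.1 and 65.3 CPM in VB type 1, against 30.9, 9.5 and 2.93 CPM in parenchyma. The libraries did not overlap, but PIN1a was not called (fold change 2.17 ± 0.71 SE, n = 3 each, LRT adjusted p = 0.113). The parenchyma values spread widely while the VB type 1 values lay within 61.6 to 71.1 CPM. SoPIN (Bradi4g26300.2) had 37.4, 9.3 and 23.1 CPM in VB type 1, against 7.32, 0.121 and 0.837 CPM in parenchyma (LRT adjusted p = 0.186). PIN1b (Bradi3g59520.1) overlapped, with 19.5, 8.8 and 7.24 CPM in VB type 1 and 31.8, 7.84 and 0 CPM in parenchyma. Its fold change of −0.18 ± 1.17 (SE, n = 3 each) changed sign with the library left out.

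The auxin genes called higher were mostly of the Aux/IAA, ARF and SAUR families of the auxin response, with 1 ABC transporter. IAA3 (Bradi4g02580.1), an Aux/IAA repressor, had 52.6, 59.9 and 42.2 CPM in VB type 1, against 7.4, 5.19 and 6.7 CPM in parenchyma (fold change 3.00 ± 0.42 SE, n = 3 each, LRT adjusted p = 0.000131). IAA3 stayed called with any library left out. ARF7 (Bradi1g34340.1), an activating auxin response factor, had 68.7, 92.1 and 36.4 CPM in VB type 1, against 11.7, 14.9 and 15.9 CPM in parenchyma (LRT adjusted p = 0.0115). IAA26 (Bradi2g33417.1) had 10.3, 8.23 and 11.8 CPM in VB type 1, against 0.0425, 0.603 and 0.837 CPM in parenchyma (LRT adjusted p = 0.011). Both lost the call without VB type 1 replicate 2, ARF7 also without parenchyma replicate 1 or 2 and IAA26 also without VB type 1 replicate 3. PGP11 (Bradi2g47347.1), of the P-glycoprotein family of ABC transporters, had 3.35, 2.11 and 1.49 CPM in VB type 1, whereas parenchyma held no pair, at least 4.93-fold higher (LRT adjusted p = 0.000985). It stayed called with any library left out. The auxin response factor Bradi5g25767.1 overlapped between the tissues, with 149, 132 and 141 CPM in VB type 1 and 174, 132 and 209.7 CPM in parenchyma.

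On the side of parenchyma stood a hydrolase and a carrier. IAR3 (Bradi2g47790.2), which releases auxin from its amino acid conjugates in Arabidopsis, had no pair in VB type 1, against 2.4, 22.2 and 42.3 CPM in parenchyma. It was at least 192-fold lower in VB type 1, taken against 3 pairs in each library averaged over the tissue, and it stayed called with any library left out when genes at 1 CPM in 2 libraries were kept. An auxin efflux carrier family gene, Bradi2g61980.4, had 15.1, 16.3 and 21.6 CPM in VB type 1, against 50.2, 60.9 and 97.5 CPM in parenchyma (LRT adjusted p = 0.0209). That call was lost without any of the 3 VB type 1 libraries or without parenchyma replicate 2.

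Cytokinin genes showed positive fold changes in all 7 members, with a median of 3.15, and 3 were called higher, 2 of them also without parenchyma replicate 3. All 3 calls were of members the study ranked on these libraries, and the 2 members from other sources gave 0. None of the 3 calls held without VB type 1 replicate 2. ARR9 (Bradi5g11350.1), a response regulator induced by cytokinin, had 39.1, 66.0 and 21.9 CPM in VB type 1, against 5.83, 6.58 and 3.35 CPM in parenchyma (LRT adjusted p = 0.00173). LOG1 (Bradi3g49300.1), of the family that activates cytokinins, had 15.0, 5.27 and 4.31 CPM in VB type 1, against 0.915, 0.121 and 0 CPM in parenchyma (LRT adjusted p = 0.0351, and 0.0639 without parenchyma replicate 3), and its call was lost without any library but parenchyma replicate 1. A LOG-like gene, Bradi2g42190.1, had 6.66, 10.4 and 3.56 CPM in VB type 1 and at most 3 pairs in each parenchyma library. ABCG14 (Bradi3g16130.1), known in Arabidopsis as the exporter that carries cytokinin from root to shoot, was named for its fold change and was not a member of the list. It had 18.4, 11.5 and 7.39 CPM in VB type 1, whereas parenchyma held no pair, at least 26.5-fold higher.

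The other hormone genes were 9, of which 5 were called higher and 2 lower, and 3 higher and 2 lower without parenchyma replicate 3. Their median fold change was 2.88, or 1.77 with 2 genes without a pair in parenchyma at their bounds. Of the calls with all libraries, 4 higher and 1 lower were of the 6 members the study ranked on these libraries. The 3 members from other sources gave 1 higher and 1 lower, with a median of −2.21. KAO2 (Bradi1g51780.1), of gibberellin synthesis, had 1.45, 1.69 and 31.6 CPM in VB type 1, with no parenchyma pair, so that its level rested mostly on replicate 3. CCD8 (Bradi2g49670.1), of strigolactone synthesis, had 19.7, 25.8 and 0.817 CPM in VB type 1, against 0.404, 0.241 and 0.837 CPM in parenchyma, and lost its call without VB type 1 replicate 2 or parenchyma replicate 2. ACO4 (Bradi4g31820.1), an enzyme that forms ethylene, was lower, with 15.3, 8.07 and 10.6 CPM in VB type 1, against 102.6, 169 and 35.6 CPM in parenchyma (LRT adjusted p = 0.0011), and lost its call without VB type 1 replicate 2. BR6OX2 (Bradi1g15030.1), which makes active brassinosteroids, was also called lower, with 2.95, 12.7 and 3.08 CPM in VB type 1 and 99.6, 69.95 and 12.6 CPM in parenchyma. Its libraries overlapped, and the call was lost without parenchyma replicate 1 or 2 and without VB type 1 replicate 1 or 3. BRL1 (Bradi4g27440.1), a vascular brassinosteroid receptor in Arabidopsis, had 1.21, 0.846 and 2.75 CPM in VB type 1, whereas parenchyma held no pair.

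The ERECTA genes, the subject of the study, did not separate the tissues. BdERECTA (Bradi1g46450.1), a receptor kinase, had 184, 178 and 109.7 CPM in VB type 1 and 167, 215 and 189.6 CPM in parenchyma. The fold change was −0.28 ± 0.32 (SE, n = 3 each, LRT adjusted p = 0.923), and −0.28 also without parenchyma replicate 3. BdERECTA-like 1 (Bradi1g49950.1) had 79.3, 79.5 and 36.6 CPM in VB type 1, against 39.0, 35.9 and 20.1 CPM in parenchyma, with a fold change of 1.04 ± 0.44 (SE, n = 3 each, LRT adjusted p = 0.484). Such p-values do not show that the levels were equal.

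The EPFL peptides, ligands of ERECTA receptors, depended on parenchyma replicate 3. EPFL1 (Bradi3g38740.1) was the member called, with 3.15, 4.46 and 5.2 CPM in VB type 1, against 11.02, 19.2 and 74.5 CPM in parenchyma. Its fold change of −3.02 ± 0.75 (SE, n = 3 each, LRT adjusted p = 0.0152) became −1.82 (LRT adjusted p = 0.161) without parenchyma replicate 3, and the call was also lost without any of the VB type 1 libraries. EPFL1 was still lower in every VB type 1 library than in any parenchyma library. EPFL9 (Bradi2g58540.1) had 0.606, 3.08 and 0.483 CPM in VB type 1 and 2.74, 1.06 and 30.6 CPM in parenchyma, and its fold change of −2.99 became −0.47 without that library. EPFL2 (Bradi1g10080.1) had 4.12, 6.96 and 3.97 CPM in VB type 1 and 0.0425, 1.27 and 11.3 CPM in parenchyma, and its fold change of 0.41 became 3.01. Parenchyma replicate 3 was the highest library for EPFL1, EPFL2, EPFL4 and EPFL9.

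**Figure D3:**
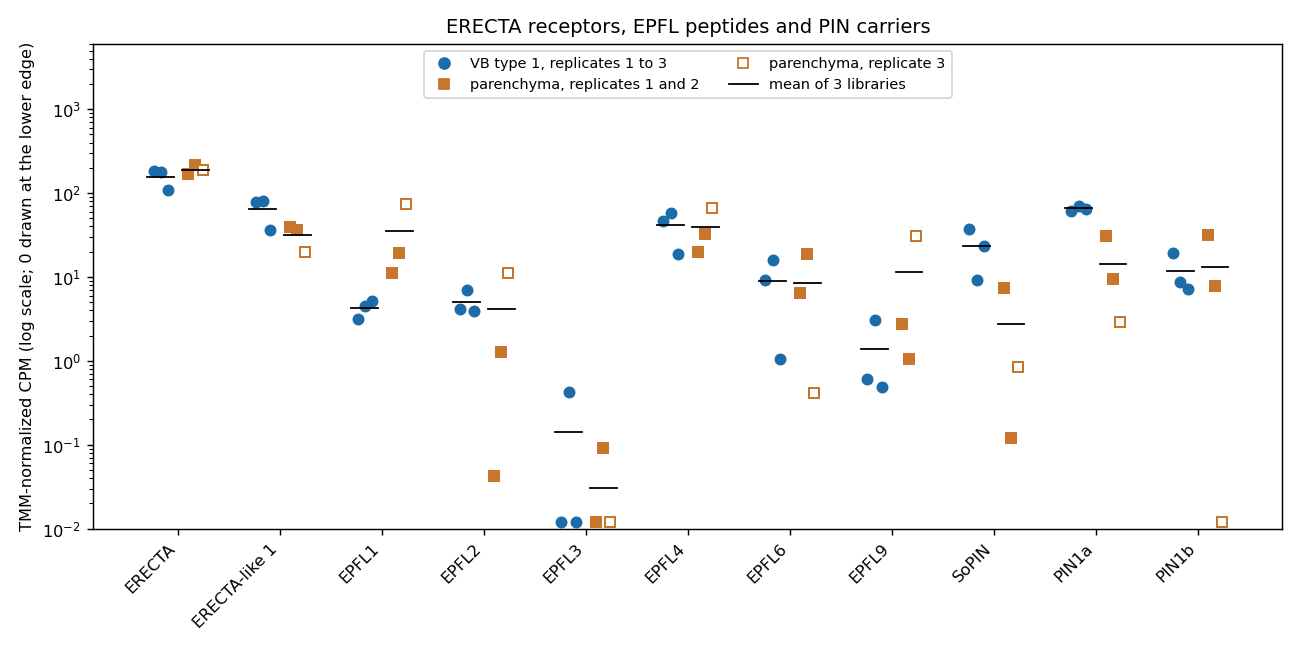
Level of 2 ERECTA receptor genes, 6 EPFL genes and 3 PIN carriers in each library (vertical, TMM-normalized CPM, log scale, with 0 drawn at the lower edge), VB type 1 to the left of parenchyma, with bars at the mean of 3 libraries. The receptors overlap or nearly meet between the tissues, the open square of parenchyma replicate 3 stands highest for EPFL1, EPFL2, EPFL4 and EPFL9, and PIN1a separates the tissues.

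EPFL4 and EPFL6 overlapped between the tissues. EPFL4 (Bradi1g74380.1) had 46.5, 58.4 and 18.9 CPM in VB type 1 and 19.7, 33.0 and 66.6 CPM in parenchyma. EPFL6 (Bradi2g22340.1) had 9.33, 16.1 and 1.04 CPM in VB type 1 and 6.4, 18.7 and 0.419 CPM in parenchyma. EPFL3 (Bradi2g05865.1) was at or under 3 pairs in 5 of the 6 libraries and was not tested.

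Small heat shock proteins were higher in VB type 1. Of 15 heat shock members tested, 7 (6 small heat shock proteins and the factor HSFA3) were called higher and 1 lower, with and without parenchyma replicate 3. All 7 came from the 8 members that the study ranked on these libraries. The 7 members from other sources gave 0 higher and 1 lower. HSP21 (Bradi3g20830.1), a chaperone of the chloroplast in Arabidopsis, had 21.2, 137 and 151 CPM in VB type 1, against 1.0, 1.15 and 1.67 CPM in parenchyma (fold change 6.40 ± 0.77 SE, n = 3 each, LRT adjusted p = 4.58e-08). A second HSP21 gene, Bradi3g20840.1, had 13.4, 41.2 and 65.3 CPM in VB type 1, against 0.574, 0.603 and 0.837 CPM in parenchyma. Pairs matching several transcripts were removed before counting, so the split between these similar genes is uncertain. VB type 1 replicate 1 was the lowest bundle library for both HSP21 genes.

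Larger chaperones did not follow the small ones. An HSP70-like gene, Bradi2g23250.1, was called lower, with 0.848, 0.615 and 1.0 CPM in VB type 1, against 7.21, 13.9 and 3.35 CPM in parenchyma (LRT adjusted p = 0.0351), and lost its call without any library but parenchyma replicate 3. The HSP101-like gene Bradi2g49660.1 had 6.26, 4.88 and 5.46 CPM in VB type 1 and 0.915, 0.332 and 32.7 CPM in parenchyma. Its fold change of −0.97 became 3.10 without parenchyma replicate 3, and it was not called either way. The list median was 3.78, or 1.24 with 2 genes without a pair in parenchyma at their bounds, and it was 0.06 in the fit of all 12 libraries. That fit required 1 CPM in 6 of the 12 libraries, so its median can cover fewer members.

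Transporters of amino acids divided between the tissues. Of 11 tested, 3 were called higher and 7 lower, with and without parenchyma replicate 3. The 6 members the study ranked on these libraries gave 1 higher and 5 lower, and the 5 tested from other sources gave 2 higher and 2 lower. AAP1 (Bradi4g40570.1), an amino acid permease, had 14.9, 27.1 and 18.5 CPM in VB type 1, against 0.106, 0.0302 and 0.419 CPM in parenchyma (fold change 7.63 ± 1.11 SE, n = 3 each, LRT adjusted p = 4.58e-08). The permease AAP8 (Bradi2g56760.1), of the phloem in Arabidopsis, had 25.97, 87.0 and 60.2 CPM in VB type 1, against 10.9, 1.69 and 0.419 CPM in parenchyma (LRT adjusted p = 0.0151), and lost its call without VB type 1 replicate 2 or parenchyma replicate 2. Genes matched to AAP2 went both ways. Bradi2g56970.4 had 0.969, 36.3 and 72.1 CPM in VB type 1, against 0.425, 0.392 and 0.419 CPM in parenchyma, whereas Bradi5g14240.1 had 7.27, 7.57 and 14.1 CPM in VB type 1, against 40.5, 100.8 and 67.0 CPM in parenchyma, and lost its call without VB type 1 replicate 2.

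Parenchyma had higher values of other carriers. BAT1 (Bradi2g43062.1), a bidirectional amino acid transporter, had 31.1, 26.8 and 29.5 CPM in VB type 1, against 179.9, 222 and 412 CPM in parenchyma (fold change −3.22 ± 0.40 SE, n = 3 each, LRT adjusted p = 2.45e-05). Bradi3g00282.1, an amino acid transporter family gene, had 3.31, 0.0384 and 1.86 CPM in VB type 1, against 86.8, 450.1 and 33.1 CPM in parenchyma. Both stayed called with any library left out.

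Cell wall genes of growth also went both ways. Of 17 expansins and xyloglucan endotransglucosylases tested, 6 were called higher and 2 lower, and 7 higher and 3 lower without parenchyma replicate 3. All these calls were of members the study ranked on these libraries, and the 4 tested from other sources gave 0. EXPA1 (Bradi3g59460.1), an expansin that loosens walls, had 279, 380.4 and 171 CPM in VB type 1, against 39.2, 36.0 and 87.5 CPM in parenchyma (LRT adjusted p = 0.00814). EXPA1 lost its call without VB type 1 replicate 2 and without parenchyma replicate 1 or 2. XTH26 (Bradi3g10290.1), which cuts and rejoins xyloglucan, had 4.72, 18.0 and 13.3 CPM in VB type 1, against 0.0638, 0.271 and 0 CPM in parenchyma, and held with any library left out. In the other direction, XTH25 (Bradi1g33840.1) had 25.1, 130.2 and 114 CPM in VB type 1, against 401, 1618 and 1828 CPM in parenchyma (fold change −3.84 ± 0.75 SE, n = 3 each, LRT adjusted p = 0.00086).

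The fasciclin-like arabinogalactan proteins, which sit at the cell surface, gave 2 higher and 2 lower of 6. The 2 lower were of members the study ranked on these libraries. The 2 higher were of members from other sources, which the ranked table lists as well. FLA2 (Bradi3g56390.1) had 8.97, 20.95 and 17.04 CPM in VB type 1, whereas parenchyma held no pair, at least 33.3-fold higher. FLA1 (Bradi4g33040.1) had 22.5, 29.7 and 49.6 CPM in VB type 1, against 1.89, 3.95 and 0.419 CPM in parenchyma (LRT adjusted p = 0.000437). SOS5 (Bradi2g23270.2) had 2.87, 1.65 and 2.15 CPM in VB type 1, against 23.4, 23.3 and 27.2 CPM in parenchyma (LRT adjusted p = 0.000154). These 3 stayed called with any library left out. FLA13 (Bradi2g16560.2), the other lower member, was not called without parenchyma replicate 3 (LRT adjusted p = 0.103), nor without parenchyma replicate 2 or VB type 1 replicate 1 or 2.

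**Figure D4:**
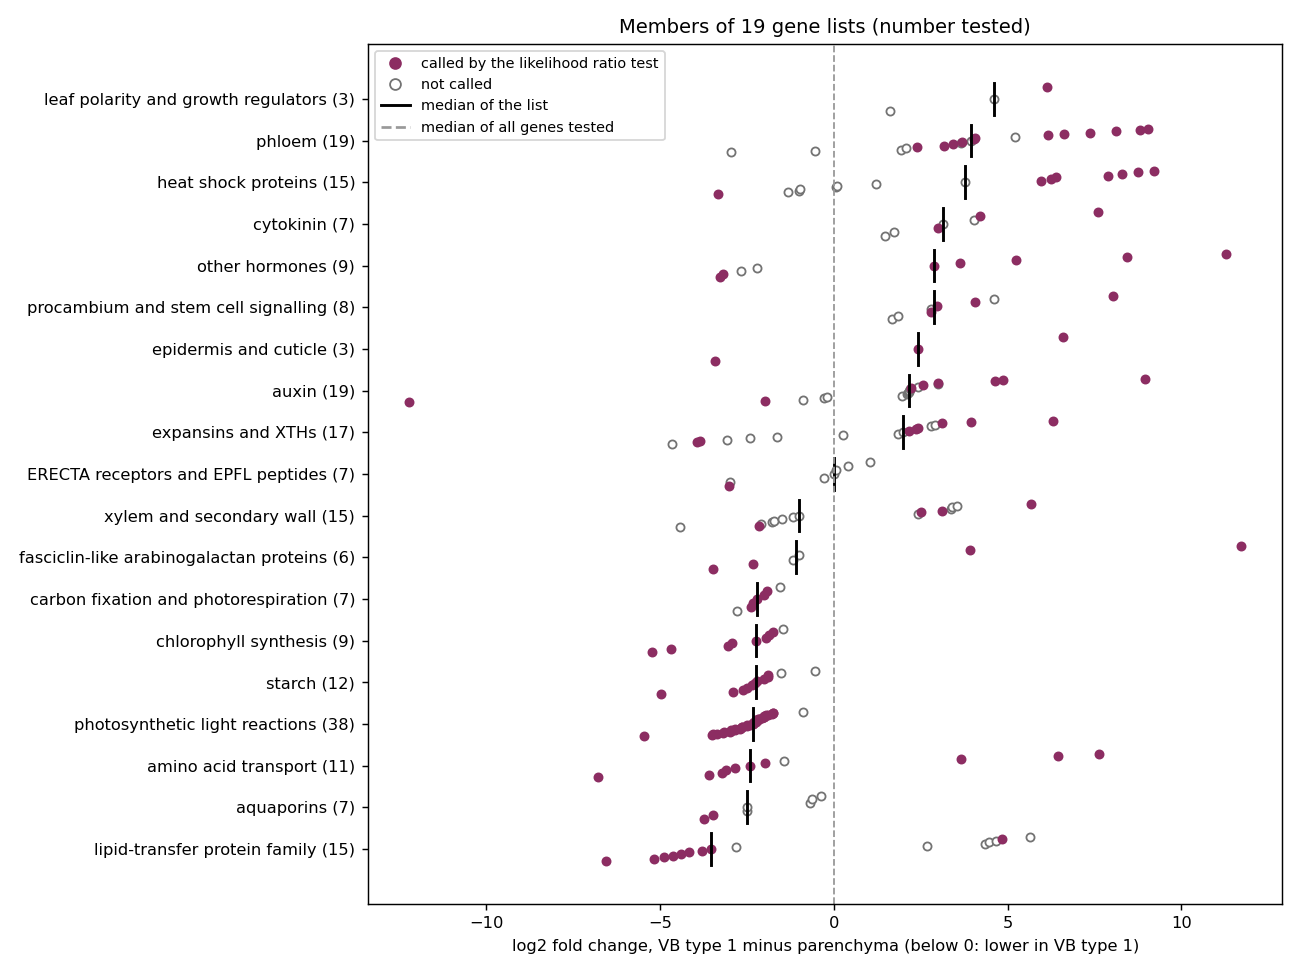
Fold change (horizontal, log2, VB type 1 over parenchyma) of every tested member of 19 gene lists, with members called by the LRT filled, list medians as bars and the median of all genes dashed at 0.01. Procambium and cytokinin members all lie right of 0, the 4 lists of photosynthesis, chlorophyll, carbon fixation and starch lie left of it, and xylem, amino acid transport and lipid-transfer members lie on both sides. Fitted values of genes without a pair in a tissue depend on the prior count of the fit.

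Parenchyma was marked by its photosynthetic genes. Of 38 genes of the light reactions tested, 38 had negative fold changes, 37 were called lower and 36 did not overlap between the tissues, with a median fold change of −2.33. Without parenchyma replicate 3, 34 were called lower and the median was −2.16. The summed level of the list was 3485, 2111 and 2749 CPM in VB type 1, against 9100, 20777 and 20082 CPM in parenchyma. The genes were therefore reduced and not absent in VB type 1. All 37 calls were of members the study ranked on these libraries, and bundles were picked by low chlorophyll. Without VB type 1 replicate 2, 3 of the 37 calls remained.

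LHCB1.5 (Bradi3g42627.3), a chlorophyll-binding antenna protein of photosystem II, had 31.3, 23.6 and 41.7 CPM in VB type 1, against 182, 314 and 253 CPM in parenchyma (fold change −2.96 ± 0.38 SE, n = 3 each, LRT adjusted p = 7.38e-05). PSAL (Bradi4g08020.1), a subunit of photosystem I, had 97.3, 84.0 and 129 CPM in VB type 1, against 414, 811 and 1004 CPM in parenchyma (LRT adjusted p = 0.000301), and lost its call without VB type 1 replicate 2. Parenchyma replicate 1 was below the other parenchyma libraries for PSAL and for the summed level of the list. A gene annotated as the PsbD reaction center protein, Bradi1g78076.2, had 9.09, 14.1 and 6.31 CPM in VB type 1, against 82.4, 54.1 and 77.0 CPM in parenchyma. LHCB1.5 and Bradi1g78076.2 were the members of the list that stayed called with any library left out.

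Chlorophyll synthesis followed the light reactions, with 8 of 9 members called lower, and 7 without parenchyma replicate 3. All 9 members came from the table the study ranked on these libraries. PORA (Bradi5g26230.1), which reduces protochlorophyllide in the light, had 26.7, 12.7 and 8.61 CPM in VB type 1, against 160.3, 1125 and 513 CPM in parenchyma (fold change −5.23 ± 0.77 SE, n = 3 each, LRT adjusted p = 3.91e-06). It was the member that held with any library left out. A second gene matched to PORA, Bradi3g57380.1, had 50.6, 45.5 and 58.3 CPM in VB type 1, against 272, 299 and 151 CPM in parenchyma (LRT adjusted p = 0.00366), and lost its call without VB type 1 replicate 2.

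In carbon fixation, 5 of 7 members were called lower, and 3 without parenchyma replicate 3. RBCS1A (Bradi3g26391.1), the small subunit of Rubisco, had 78.5, 122 and 232 CPM in VB type 1, against 355, 756 and 1054 CPM in parenchyma (LRT adjusted p = 0.0175, and 0.0819 without that library). Its call was also lost without parenchyma replicate 2 and without VB type 1 replicate 1 or 2. FBA2 (Bradi4g24367.1), a plastid aldolase, had 119, 99.6 and 176 CPM in VB type 1, against 593, 797 and 648 CPM in parenchyma (LRT adjusted p = 0.00122). All 5 calls were of members the study ranked on these libraries, and none remained without VB type 1 replicate 2. The 1 member from another source was not called.

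Starch genes were lower as well, 10 of 12 with all libraries and 11 without parenchyma replicate 3. APL2 (Bradi2g14970.1), a large subunit of ADP-glucose pyrophosphorylase, the enzyme that commits carbon to starch, had 12.6, 31.8 and 20.8 CPM in VB type 1, against 122, 192 and 81.2 CPM in parenchyma (fold change −2.60 ± 0.47 SE, n = 3 each, LRT adjusted p = 0.00317). APL2 was known from another source as well as from the table ranked on these libraries. It held with any library left out. Of the 10 calls, 8 were of genes known from that ranked table alone. GPT2 (Bradi1g26000.2), which imports glucose phosphate into plastids, had 9.17, 10.4 and 15.1 CPM in VB type 1, against 29.4, 300.0 and 753 CPM in parenchyma.

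Vacuolar and plasma membrane water channels had negative fold changes in all 7 members tested. Of these, 2 were called lower, and 3 without parenchyma replicate 3. The calls were all of members the study ranked on these libraries, and the 3 tested from other sources gave 0. GAMMA-TIP (Bradi1g75290.1), a tonoplast aquaporin of expanded cells, had 117, 187 and 201 CPM in VB type 1, against 1945, 3389 and 1437 CPM in parenchyma (fold change −3.74 ± 0.50 SE, n = 3 each, LRT adjusted p = 1.81e-06). It held with any library left out. The plasma membrane channel PIP2 (Bradi1g28760.1) had 47.5, 303 and 308 CPM in VB type 1, against 1092, 2054 and 535 CPM in parenchyma. It passed the LRT without parenchyma replicate 3 (adjusted p = 0.0251) and not with all libraries (adjusted p = 0.0549).

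Lipid-transfer proteins, small secreted proteins that bind lipids, gave 8 lower and 1 higher of 15 tested, and 8 lower and 0 higher without parenchyma replicate 3. With all libraries, 7 of the 8 lower calls were of members the study ranked on these libraries. The 7 tested from other sources gave 1 lower and 1 higher. Bradi3g33060.1 had 32.5, 11.3 and 30.8 CPM in VB type 1, against 432, 1279 and 123 CPM in parenchyma (LRT adjusted p = 0.000183). Bradi1g78240.1 had 0.0808, 1.15 and 8.39 CPM in VB type 1, against 251, 555 and 92.1 CPM in parenchyma (LRT adjusted p = 0.000864). Both held with any library left out, as did 2 further members. Other members were high in VB type 1 replicates 2 and 3 and nearly absent from replicate 1. Bradi5g09610.1 had 0.0808, 238 and 317 CPM in VB type 1, against 6.57, 5.73 and 10.05 CPM in parenchyma, and Bradi2g17540.1 had 0.727, 153 and 198 CPM in VB type 1, against 1.47, 13.9 and 1.26 CPM in parenchyma. Neither was called, and the member called higher, Bradi2g17550.1, had 0.404 CPM in VB type 1 replicate 1 and was not called without parenchyma replicate 3 (LRT adjusted p = 0.0826), nor without parenchyma replicate 1 or VB type 1 replicate 2 or 3.

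Genes seen in every library of one tissue and at most at 3 pairs in every library of the other numbered 485 for VB type 1 (1.41% of 34310 transcripts) and 21 for parenchyma (0.0612%). Without parenchyma replicate 3 they numbered 549 for VB type 1 and 191 for parenchyma, so the size of the parenchyma set depended on whether that library was included. Of the 485 genes, 243 had no pair in parenchyma. Those with the highest lowest-library level in VB type 1 included IQD33 (Bradi1g36140.1), of the calmodulin-binding IQD family, with 9.65, 10.7 and 9.58 CPM in VB type 1, against 0.0425, 0 and 0.419 CPM in parenchyma.

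The clearest genes seen in parenchyma and not in VB type 1 were these. A major facilitator family transporter, Bradi4g04310.1, had 0, 0.0384 and 0 CPM in VB type 1, against 18.7, 32.1 and 19.7 CPM in parenchyma (LRT adjusted p = 5.13e-13). A pectin methylesterase inhibitor family gene, Bradi5g11090.2, had no pair in VB type 1, against 18.6, 18.1 and 5.44 CPM in parenchyma, and was at least 121-fold lower. A cytochrome P450 matched to CYP71B2, Bradi2g26490.1, had no pair in VB type 1, against 5.28, 10.9 and 6.7 CPM in parenchyma, and was at least 65.9-fold lower. These genes stayed called with any library left out when genes at 1 CPM in 2 libraries were kept. With parenchyma replicate 3 removed and 3 libraries required, they could not be tested, since 2 parenchyma libraries remain.

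Among the 44 genes called in all 6 libraries and, at 1 CPM in 3 libraries, in each fit without a library (19 higher, 0.111% of those tested, and 25 lower, 0.146%), several were in no list. They were chosen after their values were seen. Nitrate reductase NIA1 (Bradi3g37940.1), the first enzyme of nitrate assimilation, had 4.85, 6.96 and 2.75 CPM in VB type 1, against 76.9, 63.3 and 28.5 CPM in parenchyma (LRT adjusted p = 0.00013). Nitrite reductase NIR1 (Bradi3g57990.1), the next enzyme, had 7.55, 8.96 and 6.2 CPM in VB type 1, against 100.2, 66.5 and 34.3 CPM in parenchyma (LRT adjusted p = 0.000242). The scaffold genes BT1 (Bradi5g13663.1) and BT2 (Bradi2g58152.1), which respond to nitrate in Arabidopsis, had LRT adjusted p-values of 0.00273 and 4.54e-05. BT1 had 2.75, 5.23 and 0.854 CPM in VB type 1, against 36.2, 24.9 and 29.7 CPM in parenchyma, and BT2 had 1.53, 2.88 and 1.3 CPM in VB type 1, against 67.1, 23.9 and 20.1 CPM in parenchyma. These genes did not overlap between the tissues.

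On the higher side, the same 44 genes included several glutathione S-transferases of the phi class, which conjugate glutathione to other compounds. GSTF8 (Bradi1g76080.1) had 39.9, 280.0 and 262 CPM in VB type 1, against 3.17, 4.52 and 2.93 CPM in parenchyma (fold change 5.76 ± 0.73 SE, n = 3 each, LRT adjusted p = 2.09e-07). GSTF11 (Bradi1g76090.1) had 38.8, 179.7 and 159 CPM in VB type 1, against 4.77, 1.3 and 2.51 CPM in parenchyma. Their identifiers are neighbours, and reads shared between similar copies were not counted.

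Markers of other tissues that a section could hold were also read. In the list of epidermis and cuticle, CER1, of wax synthesis, and FAR4, of suberin synthesis, were called higher in VB type 1, and CYP96A10 was called lower. FAR4 was not called without parenchyma replicate 3 (LRT adjusted p = 0.0743). The summed level of the 4 genes in that list was 25.4 to 75.2 CPM in VB type 1 and 31.8 to 142 CPM in parenchyma. Of the 4, 1 was at most at 0.0808 CPM in any library. Of 3 leaf polarity and growth genes, YAB1 (Bradi5g16910.1), of the outer side of leaves, had 2.22, 2.58 and 27.8 CPM in VB type 1, against 0.149, 0 and 0.837 CPM in parenchyma (LRT adjusted p = 0.0414), a call lost without parenchyma replicate 1 or 2 and without VB type 1 replicate 2 or 3. GRF2 (Bradi1g12650.1), a growth regulator of young leaves, had 53.7, 13.8 and 6.2 CPM in VB type 1 and 0.128, 0.0302 and 25.5 CPM in parenchyma. Its fold change of 1.61 became 8.10 without parenchyma replicate 3, with LRT adjusted p-values of 0.819 and 1.72e-05. The remaining gene of these 3, KAN2, was also counted in the procambium list above. The part of leaf or epidermal cells in the vascular results was not tested.

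**Figure D5:**
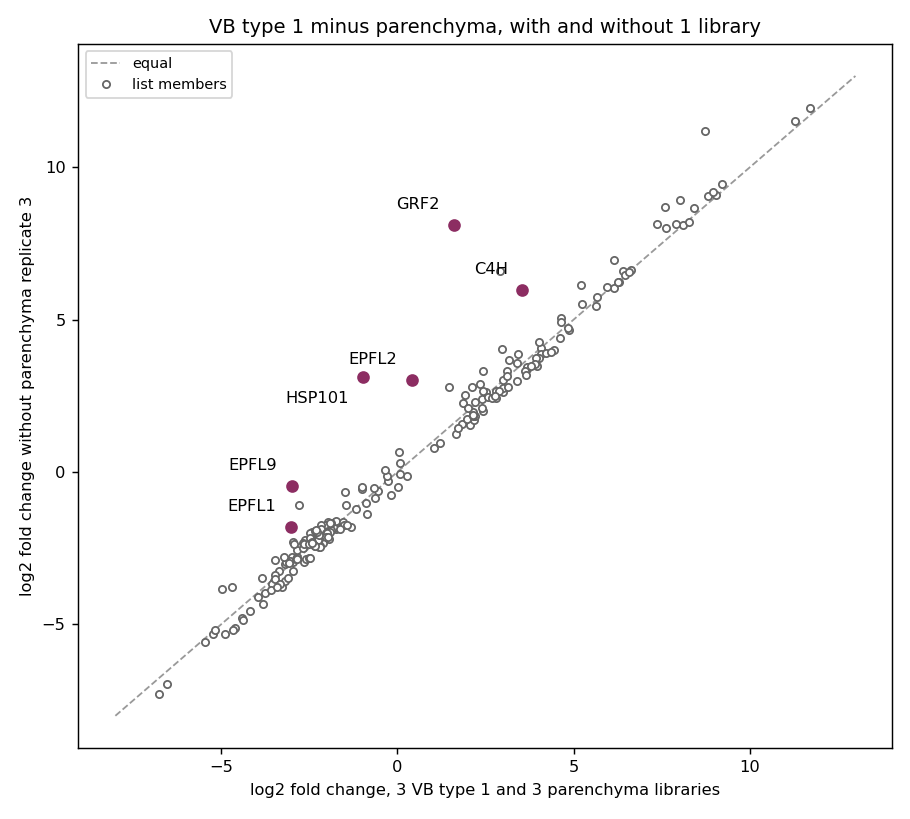
Fold change of each list member without parenchyma replicate 3 (vertical, log2) against that with all 6 libraries (horizontal, log2), with the dashed line where they are equal. Most members lie near the line, and the filled, named points GRF2, C4H, HSP101, EPFL2, EPFL9 and EPFL1, in which parenchyma replicate 3 exceeded the other parenchyma libraries, lie above it.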

How the data were processed

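RNA from laser-captured tissue was sequenced in 12 libraries, and the 6 of VB type 1 and parenchyma were used here. Reads were trimmed by the authors (Trimmomatic), cleared of ribosomal RNA (sortMeRNA) and mapped to the 34310 transcripts (Bowtie2), and the deposited counts are numbers of pairs assigned unambiguously to a transcript, without normalization. Pairs with several hits were removed, and labels and study disagree on whether libraries kept strand, so values of near-identical, overlapping or antisense genes are uncertain.

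The software was edgeR 4.0.16, DESeq2 1.42.0 and limma 3.58.1, run in R 4.3.3, with figures from matplotlib 3.10.9 under Python 3.11.15. Genes at 1 CPM or more, on library sizes before TMM, in at least 3 of the 6 libraries were kept and then scaled by TMM. The main test was edgeR's quasi-likelihood test in its current form, with that of earlier edgeR versions as an alternative. The likelihood ratio test stands beside it, both with Benjamini-Hochberg adjustment and a threshold of 0.05. Alternatives changed the scaling, filter, tool, counts, replicate block and libraries. The scripts were tested on simulated data. No columns of values were left without a sample, and gene identifiers matched no entry of the reference table, so no coordinates or sequences are given.

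Named genes were the 14 the study names for these libraries; among LRT-called genes whose tissues did not overlap, the 10 highest and 10 lowest by fold change and by quasi-likelihood p; in each list, up to 6 per direction with the smallest p and the defining markers; and the 5 clearest genes seen in a single tissue. Genes named outside that rule were chosen after their values were seen. Members and lists were chosen with earlier results of these data known.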

Additional observations from a re-analysis of the deposited data

How the results depend on the processing

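The count of genes called by edgeR's quasi-likelihood test, 0 of 17078, depended on the processing. It was 136 without TMM scaling, 95 without a filter, 13 with genes at 1 CPM in 2 libraries, 328 in a fit of all 12 libraries, 18 with single-read counts and 68 without the dominant transcript. The robust form called 31, the LRT 653, DESeq2 807 and limma-voom 144, and with parenchyma replicates 1 and 2 only DESeq2 called 1217 and limma-voom 3. Without parenchyma replicate 3 it was 24 when the dominant transcript was also removed and 28 with genes at 1 CPM in 2 libraries. With each library left out it ranged from 0 to 11, and from 0 to 28 with genes at 1 CPM in 2 libraries (28 without parenchyma replicate 3, 15 without VB type 1 replicate 1). The form of earlier edgeR versions also called 0. The LRT count of 653 was 225 without TMM, 371 with genes at 1 CPM in 4 libraries, 1066 without parenchyma replicate 3 and with genes at 1 CPM in 2 libraries, and 65 to 917 with each library left out, the lowest without VB type 1 replicate 2. The leave-one-out fits with genes at 1 CPM in 2 libraries, the removal of the dominant transcript together with parenchyma replicate 3, and the counts of list members without that library were chosen after seeing the data. The set seen in parenchyma only grew to 191 genes, against 21, without parenchyma replicate 3. Leaving it out both lowers the number of libraries required and removes the shallow library, which cannot be told apart here. The causes of these changes were not tested.

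Without TMM, the median fold change of all genes was 0.24, against 0.01 with it, and list medians moved by unlike amounts, the xylem list to −0.25 against −0.99 and the fasciclin-like list to −0.60 against −1.08. The median of the ERECTA and EPFL list changed sign, from 0.02 to −0.05 without TMM, −0.15 without the dominant transcript and −0.06 with 12 libraries. With 12 libraries, the median of the epidermal list was −0.55, against 2.42, and that of the heat shock list 0.06, against 3.78. The fit of 12 libraries required 1 CPM in 6 of them, so its medians can cover fewer members. They do not show that fold changes of the same genes moved.

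The main fits did not pair samples by replicate number. Deviations of same-numbered libraries correlated at 0.073, 0.047 and −0.049, and those of differently numbered libraries at −0.146 to 0.128. So few correlations cannot exclude a pairing. With the replicate block, 540 genes passed the LRT and 0 the quasi-likelihood test, and with the block and without parenchyma replicate 3 1110 and 13 passed. In the block, the fold change was 1.80 for Bradi2g49660.1 (HSP101) and 0.97 for Bradi3g59520.1 (PIN1b), against −0.97 and −0.18.

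Fold changes that reversed were of genes that the LRT did not call with all 6 libraries. With each library left out, EPFL2 (Bradi1g10080.1) ranged from −0.22 to 3.01, EPFL4 (Bradi1g74380.1) from −0.21 to 0.65, EPFL6 (Bradi2g22340.1) from −0.67 to 1.35, Bradi2g31800.2 from −0.58 to 0.075, Bradi2g48170.1 from −1.27 to 0.042, Bradi2g49660.1 from −1.51 to 3.10, Bradi2g54570.1 from −2.60 to 1.97 and PIN1b (Bradi3g59520.1) from −0.75 to 1.58. EPFL6 was also −0.15 without TMM, −0.00089 without a filter, −0.0086 with genes at 1 CPM in 2 libraries, −0.064 with 12 libraries and −0.15 without the dominant transcript. Without TMM, Bradi2g31800.2 was 0.23, Bradi2g49660.1 was 1.43 and Bradi5g25767.1 was 0.057.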
